A study of Homo sapiens with 12 samples.

Results

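Replication origin licensing was followed through 10 genes, MCM2, MCM3, MCM4, MCM5, MCM6, MCM7, MCM10, CDC6, CDT1 and GMNN, taken by name from a raw RNA-Seq count table of 59251 genes. The cells were HL60, an established human myeloid leukemia cell line that the study describes as negative for the PML-RARA fusion. Non-treated cells were compared with cells given 1 µM all-trans retinoic acid (ATRA), 1 µM palbociclib, an inhibitor of CDK4 and CDK6 (here CDK4/6i), or the pair at the same doses (CDK4/6i+ATRA), all for 48 h. Each of the 4 groups held 3 libraries that the labels call biological replicates, 12 in all, of 1 cell line, and whether non-treated cells received the solvents is not given in the sources used here.

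Licensing is the step that makes a replication origin competent to fire. In G1 phase the origin recognition complex binds DNA and recruits CDC6, an ATPase, and CDT1, which escorts the MCM2-7 helicase ring, so that double rings of MCM2 to MCM7 are loaded onto the DNA. Geminin, the product of GMNN, binds CDT1 and blocks renewed loading in S and G2 phase, and MCM10 acts after loading, when the helicase is switched on. The genes of this system are known as targets of the E2F transcription factors, which the retinoblastoma protein holds in check until CDK4 and CDK6 phosphorylate it. In HL60 cells ATRA is a classical inducer of differentiation towards granulocytes.

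Library depth ran from 12230923 to 18679544 counts, and it was lowest with CDK4/6i+ATRA, where 3 counts corresponded to 0.248 to 0.275 CPM (counts scaled to a common library total after TMM normalization). The defining myeloid genes MPO, CTSG, CD33 and SPI1 were present, with a mean MPO level of 6517 CPM in non-treated cells and 28.0 CPM with CDK4/6i+ATRA. ELANE, PRTN3 and AZU1 were listed at 0 in all 12 libraries. Their exons are also listed on an alternate contig, so these zeros may not be absence of the RNA, and whether reads mapping to both copies were left out of the counts was not tested. HBB, PF4, MS4A1 and EPCAM were also at 0 throughout, while CD79A led the B cell list, which summed to 12.6 to 25.0 CPM per library, and the T cell list did not pass 3.10 CPM. The megakaryocyte list, nearly all of it ITGA2B, summed to 1.62 to 2.76 CPM in non-treated libraries and 8.11 to 9.99 CPM with both agents. The part of these markers in the results below was not tested. No member had exons on an alternate contig in the table, a feature of 4347 other genes.

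All 10 licensing genes were lower in every treated group than in non-treated cells, and lowest with both agents. Together they took 0.323 to 0.334% of all counts in non-treated libraries, 0.226 to 0.239% under ATRA, 0.0775 to 0.083% under CDK4/6i and 0.0098 to 0.0103% with CDK4/6i+ATRA. These shares did not overlap between any of the groups. In bulk RNA, fewer cells in a replicating state and less RNA per cell cannot be told apart. Neither cell number nor cell cycle phase was measured in these libraries. For HL60 cells at the same doses, the study reports arrest in G1 by flow cytometry, stronger with both agents, and also cell counts. The part of this arrest in the values here was not tested.

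**Figure D1:**
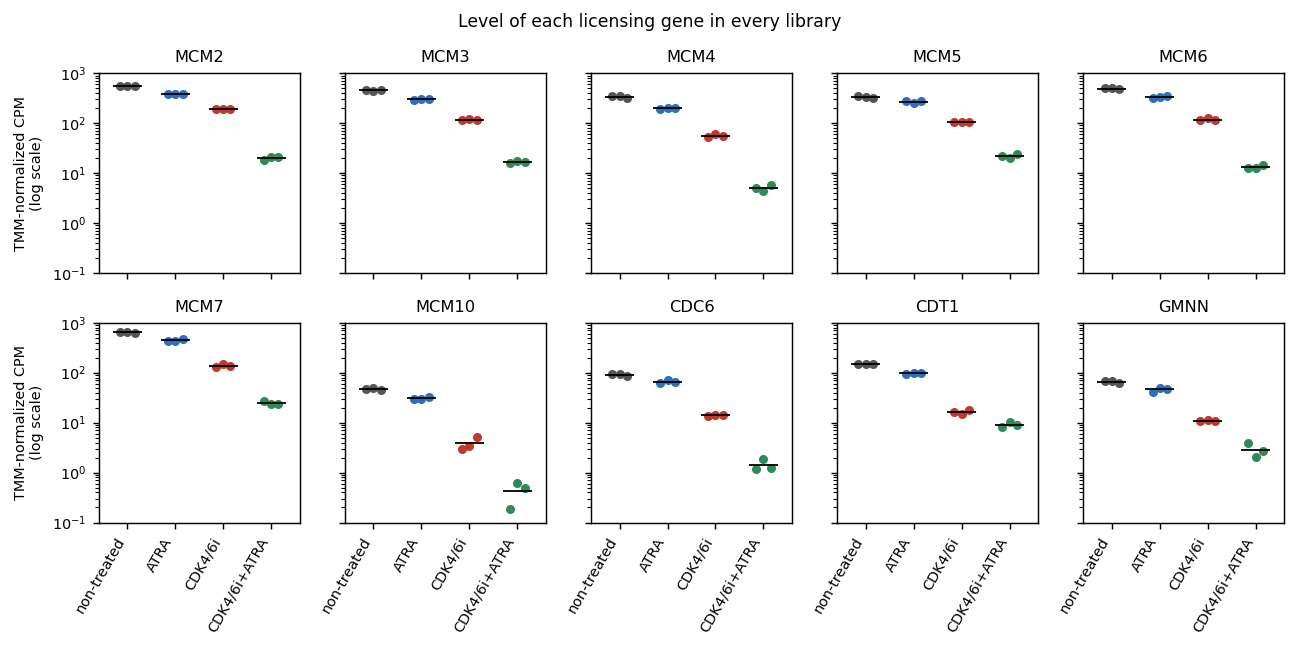
Level of each licensing gene by group, as TMM-normalized CPM on a logarithmic axis shared by all panels; points are single libraries and bars are means of 3. In every panel the groups descend from non-treated to ATRA, CDK4/6i and CDK4/6i+ATRA with no overlap, and MCM10 ends lowest, at a mean of 0.434 CPM.

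The fit was edgeR's quasi-likelihood test on the counts of the 13318 genes that passed the filter on low counts, with Benjamini-Hochberg adjustment over all of them and a threshold of 0.05. All 10 members passed the filter. The SE printed with a log2 fold change is its size divided by the square root of the test's F statistic. It is an approximation, and it can be too small where a large fall rests on few counts. With ATRA alone, 10 of 10 members fell, against 35.5% of all tested genes called lower in that comparison. Their median log2 fold change was -0.55, between -0.75 for MCM4 and -0.32 for MCM5, and the median over all genes was -0.03. With CDK4/6i alone, 10 of 10 fell against 27.9% of all genes, by a median of -2.42 (log2) and a range from -3.62 for MCM10 to -1.56 for MCM2. With CDK4/6i+ATRA, 10 of 10 fell against 40.7% of all genes (48.3% when scaled by library size alone), by a median of -4.78 (log2) and a range from -6.71 for MCM10 to -3.91 for MCM5. The lowest 5% of all tested genes in this comparison began at -3.05, so every member lay within it. The 3 treated groups were set against the same 3 non-treated libraries.

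The single treatments placed the members differently among all genes. With ATRA alone, their ranks from the most reduced gene ran from 1951 (MCM4) to 4100 (MCM5) of 13318. With CDK4/6i alone, they ran from 59 (MCM10) to 438 (MCM2). With CDK4/6i+ATRA, the ranks lay between 39 (MCM10) and 385 (MCM5).

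**Figure D2:**
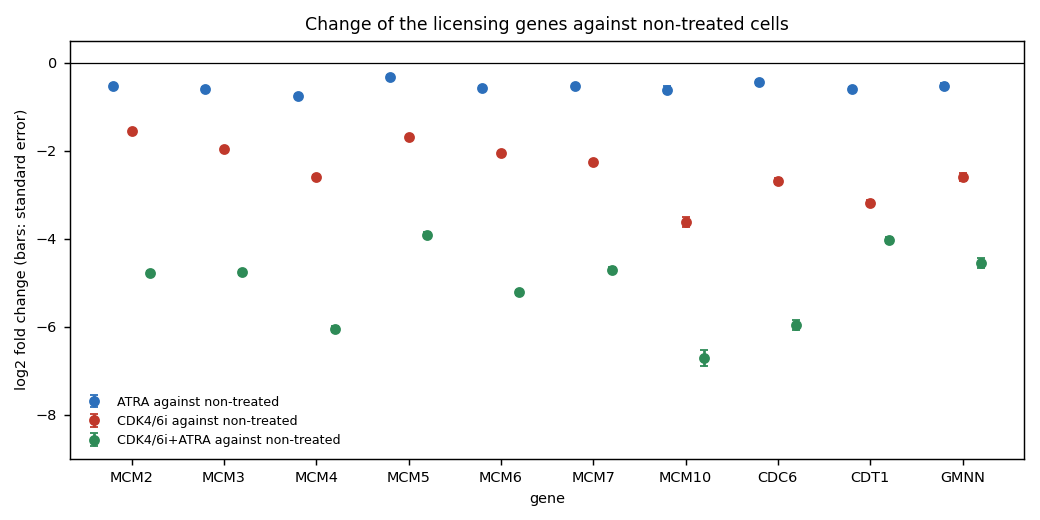
Log2 fold change of each licensing gene against non-treated cells for ATRA, CDK4/6i and CDK4/6i+ATRA. Bars show the approximate SE derived from the F statistic, which can be too small where counts are few. The ATRA points lie between -0.75 and -0.32, the CDK4/6i points between -3.62 and -1.56, and the CDK4/6i+ATRA points between -6.71 and -3.91.

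The promoters of the members were searched for sequence words. The genes were taken by name, but they are known E2F targets, so E2F words in them are not an independent result. No word was in all of the promoters found. RefSeq promoters of the build GRCh38.p14 (300 bases, of which 250 lie before the start site) were matched by symbol for 8 members, MCM2, MCM3, MCM6, MCM7, MCM10, CDC6, CDT1 and GMNN. The 4 spellings of the E2F element chosen, TTTCCCGC, TTTGGCGC, TTTCGCGC and TTTGCCGC, were searched on both strands. At least 1 of them stood at the outermost start site of 6 of the 8 members, and in 3.31% of all 35116 promoters. The share over all promoters counts every listed start site and was not matched for base composition. MCM6 held 4 such matches, some of them overlapping, MCM2, MCM3 and MCM7 held 2 each, and CDC6 and CDT1 held 1 each. The MCM10 and GMNN promoters at the outermost start held none. MCM10 carried the shorter word TTTGGCG, which was searched only after the sequences had been read and occurs in 1.92% of all promoters. A second start site of GMNN had TTTGGCGC beginning 80 bases before it, and 2 further start sites of MCM7 had no E2F word.

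The windows below run from 100 bases before each start site to 30 bases from it, 5′ to 3′ on the gene's strand, and are shown because they hold the words nearest to the start sites. Capitals mark the E2F words and the shorter words TTTGGCG and TTCCCGC, on either strand, so that GCGGGAA and GCGCGAAA are reverse complements.
MCM2 (chr3:127598311-127598440, plus strand): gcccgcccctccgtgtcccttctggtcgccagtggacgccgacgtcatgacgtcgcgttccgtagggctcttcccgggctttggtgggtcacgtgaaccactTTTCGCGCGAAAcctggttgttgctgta
MCM3 (chr6:52284713-52284842, minus strand): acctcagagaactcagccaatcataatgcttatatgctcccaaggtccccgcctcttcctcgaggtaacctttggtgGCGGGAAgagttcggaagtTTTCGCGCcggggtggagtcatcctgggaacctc
MCM6 (chr2:135876414-135876543, minus strand): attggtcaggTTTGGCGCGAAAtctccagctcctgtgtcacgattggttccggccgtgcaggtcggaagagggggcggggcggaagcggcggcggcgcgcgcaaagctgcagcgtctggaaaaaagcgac
MCM7 (chr7:100101368-100101497, minus strand): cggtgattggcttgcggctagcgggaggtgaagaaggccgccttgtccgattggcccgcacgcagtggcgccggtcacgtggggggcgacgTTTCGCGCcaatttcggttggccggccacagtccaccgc
MCM10 (chr10:13161458-13161587, plus strand): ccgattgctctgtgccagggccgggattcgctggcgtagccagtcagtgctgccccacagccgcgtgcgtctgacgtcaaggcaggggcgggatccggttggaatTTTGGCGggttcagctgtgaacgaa
CDC6 (chr17:40287779-40287908, plus strand): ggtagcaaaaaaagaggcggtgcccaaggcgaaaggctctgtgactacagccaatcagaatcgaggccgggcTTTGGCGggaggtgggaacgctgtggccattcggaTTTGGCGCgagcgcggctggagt
CDT1 (chr16:88803689-88803818, plus strand): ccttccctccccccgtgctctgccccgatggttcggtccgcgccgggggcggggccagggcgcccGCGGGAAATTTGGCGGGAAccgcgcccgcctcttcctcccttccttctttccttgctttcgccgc
GMNN (chr6:24774837-24774966, plus strand): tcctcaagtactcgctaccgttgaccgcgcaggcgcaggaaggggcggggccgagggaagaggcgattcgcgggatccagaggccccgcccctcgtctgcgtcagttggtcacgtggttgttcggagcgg
GMNN second start (chr6:24775313-24775442, plus strand): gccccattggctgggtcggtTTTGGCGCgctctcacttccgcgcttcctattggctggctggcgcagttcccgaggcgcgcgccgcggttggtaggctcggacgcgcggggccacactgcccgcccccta

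The overlapping E2F words of MCM2 lay just after the start site. Those of MCM3 began 4 and 174 bases before it and those of MCM7 began 9 and 187 bases before it, the farther ones outside the windows shown. In CDT1, GCGGGAAA began 35 bases before the start and ran into TTTGGCGGGAA. The cell cycle homology words TTTGAA and TTTAAA, which are associated with genes expressed in G2 and mitosis, were in none of the 8 outermost promoters and in 24% of all promoters. The CCAAT word was in 5 of the 8 and in 34.6% of all promoters, and the GC box GGGCGG was in 6 of the 8 and in 45% of all. Such matches describe letters only. Binding was not measured.

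The loading factors CDC6 and CDT1 both fell, CDT1 further of the pair with CDK4/6i and CDC6 further with both agents. CDC6 lies on chromosome 17 (hg38, 40287879 to 40304657, plus strand, 13 exons). Its level was 92.5, 93.6 and 84.1 CPM without treatment, 63.4, 69.8 and 65.0 CPM under ATRA, 13.5, 14.4 and 14.0 CPM under CDK4/6i and 1.19, 1.87 and 1.24 CPM under both agents. The groups did not overlap. The log2 fold change of CDC6 was -0.45 with ATRA (SE 0.054, adjusted p = 3.4e-10 in edgeR's test), -2.69 with CDK4/6i (SE 0.066, adjusted p = 7.2e-36) and -5.97 with both (SE 0.11, adjusted p = 1.1e-41).

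CDT1 lies on chromosome 16 (88803789 to 88809258, plus strand, 10 exons). Its level was 147.8, 147.9 and 145.8 CPM without treatment, 95.6, 98.9 and 97.6 CPM under ATRA, 16.0, 15.2 and 17.6 CPM under CDK4/6i and 8.34, 10.1 and 8.76 CPM under both agents. Here too no group overlapped another, but CDK4/6i and CDK4/6i+ATRA stood close together. CDT1 fell by 3.18 (log2) with CDK4/6i (SE 0.056, adjusted p = 5.6e-42), which among the members only MCM10 exceeded. Adding ATRA to CDK4/6i changed it by -0.84 more (SE 0.094, adjusted p = 2.8e-11 in edgeR's test), the smallest such change among the members.

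Geminin mRNA fell in every treated group, and its libraries with both agents were widely spread. GMNN lies on chromosome 6 (24774937 to 24786099, plus strand, 8 exons). It measured 69.4, 68.6 and 61.7 CPM without treatment, 41.2, 50.3 and 46.9 CPM under ATRA, 10.9 to 11.1 CPM in the 3 CDK4/6i libraries and 3.85, 2.05 and 2.64 CPM under both agents. Its log2 fold change was -0.53 (SE 0.066, adjusted p = 9.3e-10 in edgeR's test) with ATRA, -2.60 (SE 0.081, adjusted p = 1.4e-31) with CDK4/6i and -4.55 (SE 0.12, adjusted p = 3.9e-36) with both.

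The level of the inhibitor relative to its partner was read as the ratio of GMNN to CDT1 per gene length within a library, which does not depend on depth. The log2 ratios were -0.63, -0.64 and -0.78 in non-treated cells, -0.75, -0.51 and -0.59 with ATRA, -0.088, 0.010 and -0.21 under CDK4/6i and -0.64, -1.81 and -1.25 under both agents. The ratio was thus nearest to equal with CDK4/6i, where its mean was 0.59 above that of non-treated cells (SE 0.080, exact two-sided permutation p = 0.1, the smallest that 3 against 3 libraries allow). With CDK4/6i+ATRA it was 0.55 below non-treated cells (SE 0.34, exact permutation p = 0.3), and 1 of its 3 libraries lay within the range of non-treated cells. Without CDK4/6i+ATRA replicate 1 the difference was -0.85, and without its replicate 2 it was -0.26. With ATRA it differed by 0.064 (SE 0.084, exact permutation p = 0.4). The test was run on 9 such differences over 3 ratios, and the lowest Benjamini-Hochberg adjusted value among these exact p-values was 0.15.

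CDC6 was then set against the helicase genes. The log2 ratio of CDC6 to the mean of MCM2 to MCM7, per length, averaged -2.73 in non-treated cells and was 0.10 higher with ATRA (SE 0.056, exact permutation p = 0.2). It was 0.66 lower than in non-treated cells with CDK4/6i (difference -0.66, SE 0.031) and 1.05 lower with CDK4/6i+ATRA (difference -1.05, SE 0.23), both with the smallest exact permutation p of 0.1. The ratio of CDT1 to the same mean, chosen after its values were seen, was lowest with CDK4/6i and highest with both agents. On the log2 scale it averaged -1.19 ± 0.027 (SD, n = 3) in non-treated cells, -1.24 ± 0.038 under ATRA, -2.35 ± 0.15 under CDK4/6i and -0.31 ± 0.18 under both agents. CDT1 was therefore at 0.438 of the mean MCM2-7 level per length in non-treated cells, 0.196 with CDK4/6i and 0.809 with both agents.

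The MCM2-7 subunits, which assemble in equal numbers into the helicase ring, fell together but not to the same extent. Per length, in TPM (length-scaled counts set to a common total), MCM7 led in non-treated cells with 595 ± 14.4 TPM (SD, n = 3), followed by MCM2 with 418.3 ± 6.99 TPM. MCM6 and MCM3, at 342.7 ± 9.16 and 342.5 ± 6.07 TPM, overlapped, as did MCM5 and MCM4, at 209.9 ± 6.74 and 209.3 ± 8.51 TPM. Below the ring genes came CDT1 with 144.2 ± 1.04 TPM, GMNN with 89.9 ± 5.13 TPM, CDC6 with 49.7 ± 2.62 TPM and MCM10 with 23.6 ± 0.960 TPM, each apart from the next.

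With ATRA that order was kept, and MCM5 and MCM4 came apart at 173.2 and 128.8 TPM. In the CDK4/6i libraries MCM2 led with 135.9 ± 2.61 TPM, above MCM7 with 119.4 ± 8.40 TPM, and GMNN and CDT1 overlapped at 14.2 and 15.2 TPM. The CDK4/6i+ATRA libraries had MCM7 first again at 17.0 ± 2.30 TPM. MCM2, MCM5 and MCM3 followed at 11.2, 10.4 and 9.36 TPM, neighbours in that order overlapping. CDT1, at 6.60 ± 0.580 TPM, there overlapped with MCM6 at 6.84 ± 0.376 TPM, and MCM4, at 2.34 ± 0.295 TPM, overlapped with GMNN at 2.89 ± 1.08 TPM.

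MCM2 lies on chromosome 3 (127598411 to 127622436, plus strand, 17 exons). Its level was 561.9, 565.5 and 544.5 CPM without treatment, 380.3, 390.9 and 391.1 CPM under ATRA, 188.9, 190.8 and 188.4 CPM under CDK4/6i and 18.2, 20.9 and 21.4 CPM under both agents. The CDK4/6i libraries retained 34.0% of the non-treated level, the highest share among the members in that group. MCM2 fell by 1.56 (log2) with CDK4/6i (SE 0.037, adjusted p = 1e-36) and changed by -3.23 more when ATRA was added (SE 0.054, adjusted p = 9.1e-44 in edgeR's test).

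MCM4, on chromosome 8, had 343.7, 344.3 and 317.2 CPM without treatment, 193.0, 199.7 and 205.7 CPM under ATRA, 53.2, 59.5 and 54.1 CPM under CDK4/6i and 5.04, 4.37 and 5.70 CPM under both agents. It was the most reduced of the ring genes in each of these comparisons, with log2 fold changes of -0.75, -2.59 and -6.05 (SE 0.040, 0.045 and 0.073, largest adjusted p = 1.9e-22 in edgeR's test).

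MCM5 lies on chromosome 22 (35400140 to 35455031, plus strand, 19 exons). The values were 348.4, 340.3 and 322.2 CPM without treatment, 273.6, 258.5 and 274.8 CPM under ATRA, 103.4, 104.6 and 104.1 CPM under CDK4/6i and 22.2, 20.5 and 24.5 CPM under both agents. It was the least reduced ring gene with ATRA and with both agents, with log2 fold changes of -0.32 and -3.91 (SE 0.038 and 0.054). MCM4 and MCM5 thus began at a like level and ended apart. The log2 ratio of MCM4 to MCM5 per length, a pair chosen after its values were seen, averaged -0.0046 ± 0.022 (SD, n = 3) in non-treated cells, -0.43 ± 0.067 under ATRA, -0.90 ± 0.079 under CDK4/6i and -2.14 ± 0.063 under both agents.

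With ATRA and with both agents, the log2 fold changes of the other ring genes lay between those of MCM4 and MCM5. MCM3 (chromosome 6, 52264015 to 52284742, minus strand), MCM6 (chromosome 2, 135839626 to 135876443, minus strand) and MCM7 (chromosome 7, 100092728 to 100101397, minus strand) had means of 454.7, 492.9 and 651.8 CPM in non-treated cells. With ATRA the means were 302.4, 332.4 and 448.1 CPM, with CDK4/6i they were 116, 118.3 and 136.8 CPM, and with both agents 16.7, 13.2 and 24.9 CPM. The log2 fold changes with CDK4/6i+ATRA were -4.77 for MCM3 (SE 0.053), -5.22 for MCM6 (SE 0.058) and -4.71 for MCM7 (SE 0.057).

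As shares of the summed MCM2-7 level per length, MCM2 was at 19.8 ± 0.135% (SD, n = 3) in non-treated cells, at 26.5 ± 0.675% with CDK4/6i and at 19.7 ± 1.58% with CDK4/6i+ATRA. MCM4 was at 9.88 ± 0.222%, 8.59 ± 0.0917%, 6.47 ± 0.185% and 4.09 ± 0.438% in non-treated, ATRA, CDK4/6i and CDK4/6i+ATRA cells, and no library of one group overlapped another. The MCM5 share was 9.91 ± 0.169%, 11.6 ± 0.426%, 12.1 ± 0.332% and 18.2 ± 1.17% in the same order. That of MCM3 stayed between 15.4 and 17.6% in all 12 libraries. The largest mean share was 2.84 times the smallest in non-treated cells and 7.26 times with CDK4/6i+ATRA. Without division by length these factors were 1.95 in non-treated cells and 4.97 with both agents.

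**Figure D3:**
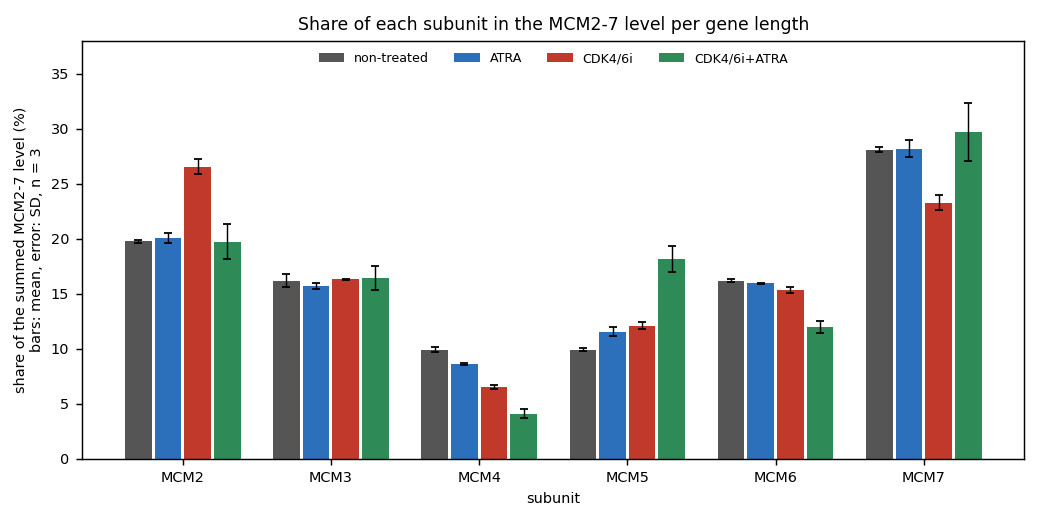
Share of each subunit in the summed MCM2-7 level per gene length, by group, with bars for the mean and error bars for the SD of 3 libraries. The MCM4 share goes from 9.88% in non-treated cells to 4.09% with CDK4/6i+ATRA and the MCM5 share from 9.91% to 18.2%, while the MCM2 share is highest with CDK4/6i, at 26.5%.

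MCM10, which acts once the helicase is loaded, was the most reduced member with CDK4/6i and with both agents. It lies on chromosome 10 (13161558 to 13211110, plus strand, 20 exons). It measured 46.6, 48.8 and 44.9 CPM without treatment, 29.7, 30.0 and 32.0 CPM under ATRA, 2.90, 3.36 and 5.21 CPM under CDK4/6i and 0.183, 0.624 and 0.496 CPM under both agents. The last of these groups rested on 2, 7 and 6 counts, so its spread was wide, although it did not overlap with CDK4/6i. The SE of a fold change that uses this group can be too small for the same reason. MCM10 had log2 fold changes of -0.61 (SE 0.078, adjusted p = 1.6e-09 in edgeR's test) with ATRA, -3.62 (SE 0.11, adjusted p = 3.8e-32) with CDK4/6i and -6.71 (SE 0.19, adjusted p = 8.8e-35) with both. Relative to the mean of MCM2 to MCM7, its log2 ratio per length differed from non-treated cells by -1.63 with CDK4/6i (SE 0.26) and by -1.84 with CDK4/6i+ATRA (SE 0.47), each with the smallest exact permutation p of 0.1.

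The effect of each agent in the presence of the other was then compared. Adding ATRA to CDK4/6i lowered 10 of 10 members, against 39.5% of all genes called lower (49.2% when scaled by library size alone), by a median of -2.94 (log2) and between -3.46 for MCM4 and -0.84 for CDT1. Adding CDK4/6i to ATRA lowered 10 of 10, against 32.8% of all genes (48.1% with that scaling), by a median of -4.22 and between -6.10 for MCM10 and -3.43 for CDT1. Both comparisons use the same CDK4/6i+ATRA libraries.

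The interaction, the log2 change with both agents minus the sum of the changes with each, was negative in 10 of 10 members, against 27.0% of all genes called in that direction (45.5% with that scaling, which moved the median of all genes to -0.341). It ranged from -2.83 for CDC6 (SE 0.18, adjusted p = 5.3e-19 in edgeR's test) to -0.25 for CDT1 (SE 0.11, adjusted p = 0.046). The CDT1 call was lost with the replicate number as a block (adjusted p = 0.053) and in 9 of the 12 fits that left out a library, all but those without ATRA replicate 1, CDK4/6i replicate 2 or CDK4/6i+ATRA replicate 2. Over all 12 fits its value lay between -0.33 and -0.19. In levels, the summed MCM2-7 genes measured 2829 CPM in non-treated cells, 1939 CPM under ATRA and 720 CPM under CDK4/6i. Multiplied, these folds would give 493.5 CPM with both, and 102.5 CPM was measured, lower by 4.81 times. Per gene, this factor was 7.15 for CDC6, 6.57 for MCM4, 6.53 for MCM2, 6.03 for MCM6, 5.75 for MCM10, 4.62 for MCM3, 3.77 for MCM7, 3.71 for MCM5, 2.67 for GMNN and 1.19 for CDT1.

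The interaction is measured on the log2 scale. In CPM, the separate falls of 8 members added up to more than their whole non-treated level, a sum that no measured level could reach, so the linear scale gives no comparison for them. For MCM2 the separate falls of 169.9 and 367.9 CPM left 19.5 CPM, and 20.2 CPM was measured, a departure of 0.671 CPM (SE 7.49). For MCM5 they left 36.1 CPM, and 22.4 CPM was measured, a departure of -13.6 CPM (SE 9.43).

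**Figure D4:**
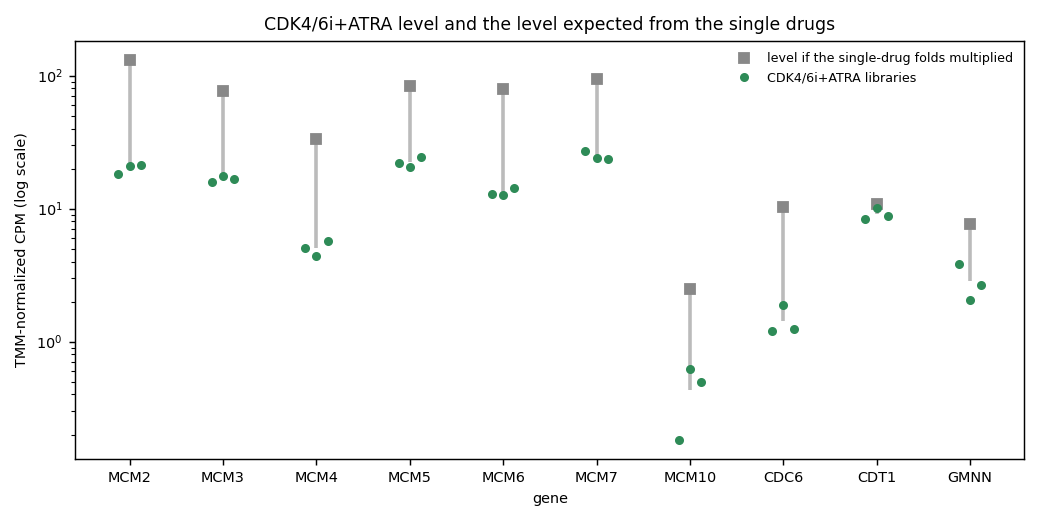
Level of each licensing gene in the CDK4/6i+ATRA libraries (circles) and the level that the folds of the single agents would give if multiplied (squares), in TMM-normalized CPM on a logarithmic axis, with grey lines from the square to the mean of the libraries. The squares lie above all 3 libraries in each gene, by 7.15 times the mean in CDC6 and by 1.19 times in CDT1.

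Genes that act with the members in licensing and helicase activation were counted in lists compiled from general knowledge. Of the origin recognition genes, 5 of 7 fell with CDK4/6i+ATRA and none rose, with a list median of -1.47 (log2) against 0.02 over all genes. Of all tested genes, 40.7% were called lower and 41.0% higher in this comparison, and 48.3% and 32.9% when scaled by library size alone, which moved the median of all genes to -0.247. ORC6 and ORC1, subunits of the complex that marks origins, changed by -4.23 (SE 0.14) and -3.86 (SE 0.083), and ORC3 by -1.59 (SE 0.081). ORC4 and LRWD1, a partner of the complex, had values of -0.08 and -0.09 and did not pass the test, but were called lower with that scaling (-0.35 and -0.36). With CDK4/6i alone, 4 of the 7 fell, most in ORC1 (-2.34), against 27.9% of all tested genes called lower.

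All 14 helicase activation genes fell with CDK4/6i+ATRA, with a median of -3.53, and all 14 fell with CDK4/6i alone, with a median of -2.26, against 40.7% and 27.9% of all tested genes. GINS2 and CDC45, parts of the active helicase with MCM2-7, changed by -6.68 and -6.58 with both agents, and TICRR, which helps to recruit CDC45, by -5.06. The folds of GINS2 and CDC45 rest on few counts. With both agents they stood at 0.344 ± 0.209 and 0.880 ± 0.199 CPM (SD, n = 3), where 3 counts were 0.248 to 0.275 CPM. The smallest changes were in GINS3 (-1.50) and DBF4 (-1.36), the latter the activating subunit of the CDC7 kinase. ATRA alone gave 8 lower and 3 higher of the 14, where 35.5% of all tested genes were lower and 32.1% higher. The fork protection genes CLSPN, TIMELESS and TIPIN fell, 3 of 3, with log2 fold changes of -6.73, -4.33 and -2.55 for both agents. CLSPN was then at 0.704 ± 0.165 CPM, so its fold too rests on few counts.

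Among relatives and partners of the MCM proteins, 3 of 6 fell and 2 rose with CDK4/6i+ATRA, near the 40.7% lower and 41.0% higher over all tested genes. HROB and MCM8, which act with MCM9 in DNA repair, changed by -4.17 (SE 0.28) and -3.62 (SE 0.083), and MCMBP, a binding protein of the MCM subunits, by -1.29 (SE 0.044). HROB was at 0.458 ± 0.280 CPM (SD, n = 3) with both agents, so its fold rests on few counts. MCM9 rose by 0.65 (SE 0.096), and MCM3AP by 0.23 (SE 0.045), the latter at -0.04 and not called when scaled by library size alone. MCMDC2 was at 0.559 CPM over all libraries and did not pass the test.

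Of 18 genes for turnover and control of licensing, 16 were tested, of which 13 fell and 2 rose with CDK4/6i+ATRA, with a median of -3.34, against 40.7% lower and 41.0% higher over all tested genes. DTL, the substrate receptor that directs CDT1 to degradation in S phase, changed by -6.43, CDC20 by -5.99 and CCNA2, which encodes cyclin A2, by -5.98. CUL4B, a scaffold of the ubiquitin ligases that DTL serves, rose by 0.63 (0.37 and still called when scaled by library size alone). The other parts of these ligases in the list fell, CUL4A by -1.11 and DDB1 by -0.72. CUL4A was the scaffold with the higher level, at 277.4 CPM in non-treated cells against 43.8 CPM for CUL4B. FZR1, the partner of the anaphase-promoting complex in G1 phase, rose by 0.16, a sign that scaling by library size alone turned (-0.10, not called). SKP1 had a value of -0.06 and did not pass the test, but was called lower with that scaling (-0.33). In the list of E2F and pocket proteins, 10 of 13 fell and 3 rose with CDK4/6i+ATRA, against the same shares, with a median of -2.48. E2F1 and E2F2, known as activators, changed by -5.99 and -5.18, and E2F4 and RBL2, known from repressor complexes of resting cells, by -0.37 and -0.36. These roles did not divide the list, since the activator E2F3 rose by 0.58 and the pocket protein RBL1 changed by -3.89. The other risers were E2F6 (0.64) and RB1 (0.46). With both agents E2F1 and E2F2 stood at 0.788 ± 0.498 and 0.755 ± 0.268 CPM (SD, n = 3), so their folds rest on few counts. E2F8 went from 23.3 ± 1.09 CPM (SD, n = 3) to 0.144 ± 0.135 CPM, and E2F5, E2F7 and E2F8 had at most 3 counts in each CDK4/6i+ATRA library, so no fold is given for them. With these 3 genes at the bound that 3 counts set, the list median was again -2.48. ATRA alone gave 5 lower and 6 higher of the 13 genes, where 35.5% of all tested genes were lower and 32.1% higher.

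**Figure D5:**
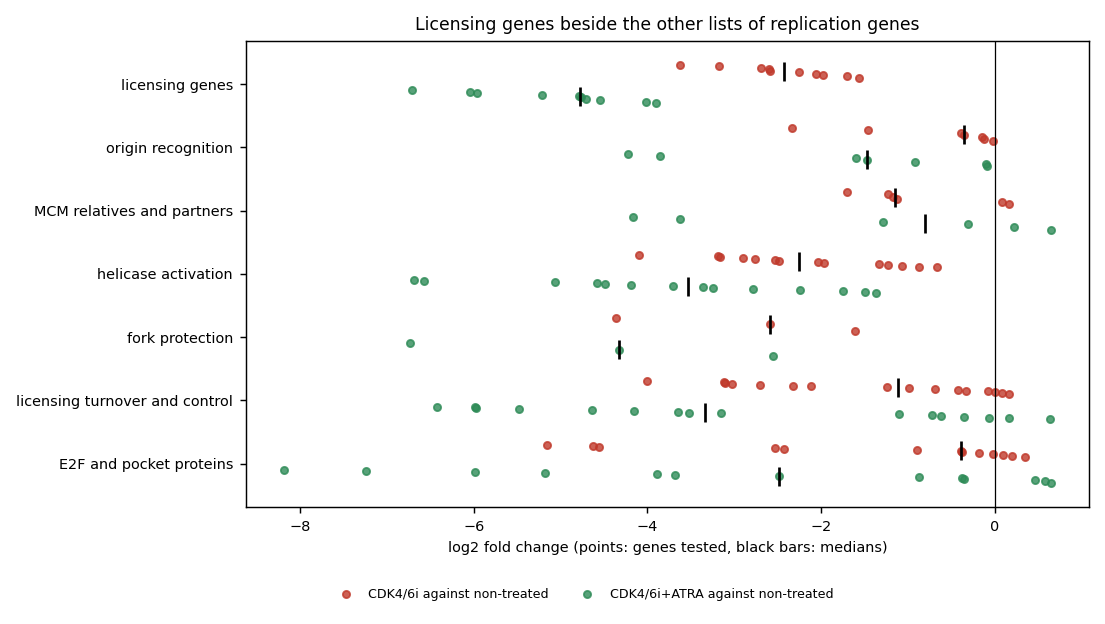
Log2 fold change of each tested gene in the licensing set and in the 6 lists, CDK4/6i alone in red and CDK4/6i+ATRA in green, each against non-treated cells, with black bars for the list medians. The licensing genes all lie at or below -1.56 and -3.91, helicase activation spreads from -6.68 to -1.36 with both agents, and 3 points of the E2F list (E2F5, E2F7 and E2F8) rest on at most 3 counts per CDK4/6i+ATRA library.

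The table held 16 genes that overlap a member or lie within 5 kb of one, of which 9 were tested. With CDK4/6i+ATRA 5 of these fell, 3 rose and TPRA1 did not pass the test, where 40.7% of all tested genes were lower and 41.0% higher. TPRA1 starts 180 bases from MCM2 on the opposite strand, and its level was 43.6 ± 3.31 CPM (SD, n = 3) without treatment and 42.6 ± 1.53 CPM with both agents (-0.04 on the log2 scale, adjusted p = 0.62 in edgeR's test, and -0.30 and called lower when scaled by library size alone). PRKDC, the catalytic subunit of DNA-dependent protein kinase, starts 805 bases from MCM4 in the other direction and changed by -1.99 (SE 0.043), where MCM4 changed by -6.05. APRT, which ends 81 bases from CDT1 on the opposite strand, changed by 0.45 with CDK4/6i and by -0.74 with both. GALNS, further along, rose by 0.76 with both.

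RARA, the retinoic acid receptor gene that begins 4523 bases past CDC6, and WIPF2 rose by 2.06 (SE 0.048) and 1.11 (SE 0.052) with CDK4/6i+ATRA. AP4M1 overlaps MCM7 on the opposite strand, with 2008 counts against 63941 for MCM7 over all libraries, and changed by -0.40 (SE 0.13), and COPS6 by -0.45 (SE 0.048). The strand setting of the counting is not given in the sources used here, so reads of AP4M1 and MCM7 in the shared stretch may not be told apart. Of the microRNA genes inside MCM7, MIR25 had 78 counts in all and changed by -1.72 (SE 0.65), and MIR106B and MIR93, with 15 and 17 counts, were not tested. LCT, LOC107986126, RNU6-519P, BTBD7P1 and RPL36AP36 had at most 58 counts each and were not tested either.

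The genes whose 3 log2 fold changes against non-treated cells lay nearest to the median of the members were sought among 9290 genes of at least 5 CPM, by Euclidean distance over the 4 groups of libraries. Among the nearest 10 were WEE1 (distance 0.277), CENPU (0.288), GINS1 (0.479), LIG1 (0.485), FAM72B (0.508), FEN1 (0.538), FANCA (0.549), FAM72D (0.560) and TIMELESS (0.563). FAM72B and FAM72D have near-identical copies, so their counts are uncertain. WEE1, which encodes an inhibitory kinase of CDK1 and CDK2, changed by -0.44, -2.38 and -4.53 with ATRA, CDK4/6i and CDK4/6i+ATRA. The members' own distances ran from 0.183 for MCM7 and 0.287 for GMNN to 2.28 for MCM10, and 5 members lay more than 1 log2 unit from the median.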

How the data were processed

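The authors trimmed the reads of a directional mRNA library with Trimmomatic 0.33 and aligned them with STAR 2.7.11a to hg38 under the NCBI RefSeq annotation, as the labels and the study's methods state, and deposited raw counts per gene for the 12 libraries in 1 table. The methods name RSEM for counting while the layout of the table is that of featureCounts, and the strand setting of the counting is not given in the sources used here. The table gives exon positions and a length for each gene. No column of the authors' own comparisons was in it.

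Groups were taken from the labels. All 59251 genes entered, 31154 of them without a count, and filterByExpr of edgeR 4.0.16 (R 4.3.3) kept 13318. A quasi-likelihood model with TMM normalization was fitted to the 4 groups (8 residual degrees of freedom, biological coefficient of variation 3.7%), and p-values were two-sided and adjusted over all tested genes for each of 5 comparisons and the interaction. CPM are TMM-normalized, TPM were computed from counts and the table's lengths, and ratios within a library used a pseudocount of 0.5 counts and an exact permutation test over libraries. Libraries of 1 group differed by more than sampling noise (chi-square per degree of freedom 1.85 to 6.81). DESeq2 1.42.0, other scalings, filters, shares without length, sample sets and each library left out were alternatives.

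The members and lists were chosen with earlier results of these data known. Named were all members, their neighbours within 5 kb, the 3 largest and 2 smallest changes with CDK4/6i+ATRA of each list among genes of at least 5 CPM, and the 10 genes nearest to the members' median, of which 1 is not reported here. MCMDC2, CUL4A, CUL4B, DDB1, E2F3, E2F5, E2F6, E2F7, RB1 and RBL1 were named outside this rule, after their values were seen. Promoters came from a RefSeq table of GRCh38.p14. MCM4 and MCM5 were not matched.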

Additional observations from a re-analysis of the deposited data

Results flagged for a closer look

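The effect of CDK4/6i differed between cells with and without ATRA in each of the 10 licensing genes, by the interaction term of edgeR's quasi-likelihood fit at an adjusted threshold of 0.05. Over all tested genes the term was called negative in 27.0% and positive in 24.5%. The difference, the log2 fold change of CDK4/6i with ATRA minus that without, was -2.70 for MCM2, -2.21 for MCM3, -2.71 for MCM4, -1.89 for MCM5, -2.59 for MCM6 and -1.92 for MCM7. It was -2.48 for MCM10, -2.83 for CDC6 and -1.42 for GMNN. For CDT1 it was -0.25, and this value alone lost its call under some alternatives. These differences are on the log2 scale. On the CPM scale 8 of the members allow no such comparison, since their separate falls add up to more than the whole non-treated level.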

How the results depend on the processing

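Of 1124 values of the members under alternatives (DESeq2, DESeq2 size factors, library size alone, other filters, only the groups compared, a replicate block and each library left out), 1114 kept their direction and side of the threshold, 10 were no longer past it and 0 reversed. All 10 were the CDT1 interaction, at -0.25 (adjusted p = 0.053) with the replicate block and down to adjusted p = 0.17 without 1 library. Same-numbered libraries correlated between -0.0702 and 0.0328 in their deviations from group means, so the numbers were not taken as pairs, and the block changed no other call of a member. Scaling by library size alone moved the all-gene median to -0.247 for the pair of agents against no treatment and to -0.341 for the interaction, where CDT1 was at -0.57. With at least 10 counts in every library, MCM10 was not tested and 8 rather than 13 E2F and pocket protein genes were called with both agents, since fewer of that list were tested. Leaving out 1 library moved the difference between CDK4/6i+ATRA and non-treated cells in the log2 ratio of GMNN to CDT1 between -0.85 (without CDK4/6i+ATRA replicate 1) and -0.26 (without its replicate 2), of CDC6 to the MCM2-7 mean between -1.28 and -0.93, and of MCM10 to that mean between -2.18 and -1.39. MCM10 and CDC6 rested on at most 21 counts per CDK4/6i+ATRA library, which limits their precision.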
